A study of Mus musculus with 6 samples.

Results

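Classical cadherins are calcium-dependent adhesion proteins of the cell surface, and 8 cadherin genes are described here in Pax7-expressing limb cells of mouse fetuses and embryos. They are Cdh1, Cdh2, Cdh3, Cdh4, Cdh6, Cdh11, Cdh13 and Cdh15, found by symbol in the platform annotation. Of the 44994 probe sets of the array 17 belonged to them, and of the 18182 genes measured they were 8. Where a gene had several probe sets, the one brightest on average across the 6 arrays stood for it. The first group held cells of E17.5 fetuses and the second cells of E12.5 embryos (3 arrays each, called biological replicates A, B and C in the labels). All carried the genotype Tg:Pax7-nGFP, a transgene that puts a nuclear green fluorescent protein under Pax7 control, on the background C57BL/6:DBA2. No other treatment is named. Limbs were dissociated with trypsin and the GFP-positive cells were sorted, so a group holds whatever limb cells carried the reporter at that age. The number of embryos behind each array is not given in the labels.

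A cadherin binds the same or a related cadherin on the neighbouring cell. Its cytoplasmic tail binds p120-catenin and either beta-catenin or plakoglobin, and alpha-catenin links that complex to actin. E-cadherin (Cdh1), N-cadherin (Cdh2), P-cadherin (Cdh3) and R-cadherin (Cdh4) are type I cadherins, M-cadherin (Cdh15) is usually placed beside them, and Cdh6 and Cdh11 are type II. T-cadherin (Cdh13) has the extracellular repeats but is held in the membrane by a lipid anchor without a cytoplasmic tail, so it is an atypical member of this set. In skeletal muscle N-cadherin and M-cadherin are the cadherins known from contacts between myoblasts and between satellite cells and their fibre.

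All values are log2 signals after GCRMA, and differences are E17.5 minus E12.5 with the standard error (SE), the 95% confidence interval and the p-value of limma, adjusted by Benjamini-Hochberg over all genes. A gene is said to have risen or fallen where that adjusted p was under 0.05. GCRMA leaves probe sets without specific signal in a dense low range, and 42.8% of genes had a mean under 4. Signals of different probe sets are not set against each other as levels, because each depends on its own probes. Since the RNA came from bulk cell samples, fewer cells of a type and less RNA per cell cannot be told apart. Nothing in the labels says that the replicates came from separate litters, so the p-values measure the spread between these arrays.

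The arrays of one age were not equally alike. E17.5 replicates A and B differed from each other with an SD of 0.152 over bright genes (mean of 6 or more), whereas the other same-age pairs differed with an SD of 0.412 to 0.551. For that reason results are also given with the near copies merged into 1 sample by their mean. Genes of connective tissue, cartilage and tendon were high on E12.5 replicate B and low on E17.5 replicate C, and results that move with them are given without both arrays, a choice made once the values were known. The sorted population carried the RNA that its label names: Pax7 averaged 12.37 ± 0.15 at E17.5 and 11.46 ± 0.28 at E12.5 (SD, n = 3 each). Pax7 itself rose (0.91, adjusted p = 0.0105), a call kept under all 18 alternatives.

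Of the 8 cadherin genes, 3 fell at E17.5 and none rose. These were Cdh11, by 3.97 on the log2 scale, Cdh1, by 1.44, and Cdh2, by 1.11. The members called lower made up 37.5% of the 8, and 8.73% of all genes were called lower (16.9% in either direction). The median difference of the 8 was -0.87, against 0.0033 over all genes. Cdh4 (lower) and Cdh13 and Cdh15 (both higher) had an unadjusted limma p under 0.05 but were not called. The share of all genes under that unadjusted threshold was not counted, so no weight is put on it. With E17.5 A and B merged the same 3 genes were called and no other member.

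**Figure D1:**
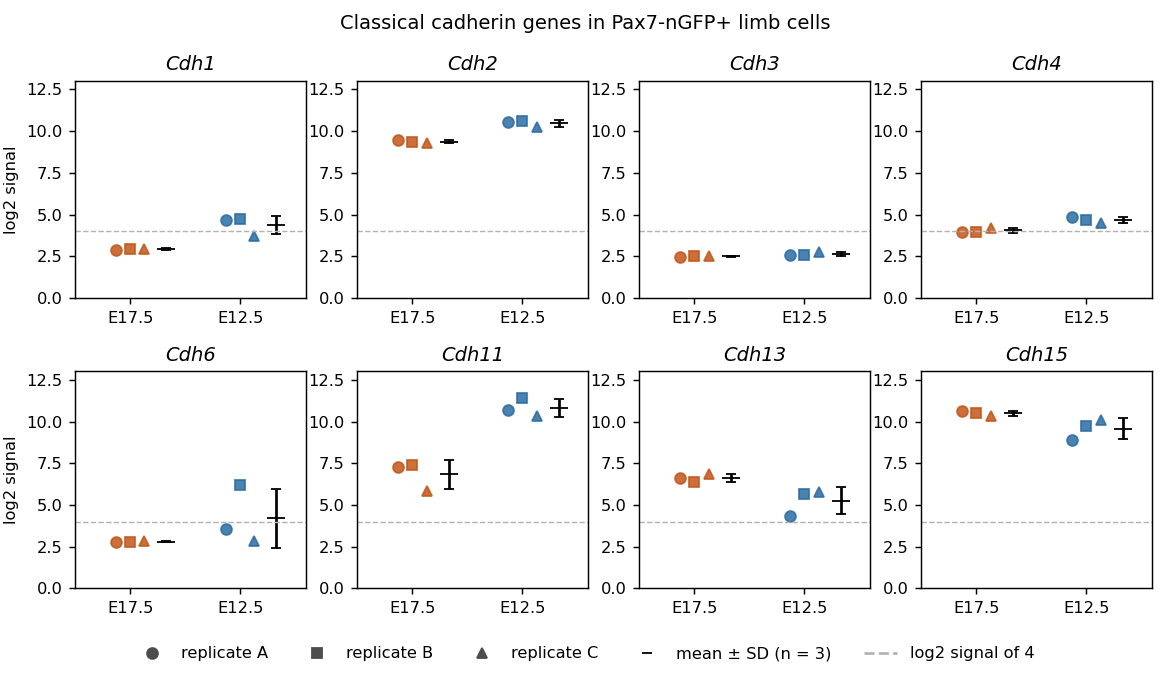
Log2 signal of the main probe set of each cadherin gene on each array, with E17.5 at the left and E12.5 at the right of every panel; symbols mark replicates, black bars the mean ± SD of 3 arrays, and the dashed line a log2 signal of 4. Cdh11, Cdh2 and Cdh1 lie lower at E17.5 without overlap, Cdh15 and Cdh13 lie higher, and Cdh3 stays under the line on all 6 arrays.

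Cdh2, the gene of N-cadherin, had log2 signals of 9.46, 9.34 and 9.27 on the E17.5 arrays and 10.57, 10.61 and 10.23 on the E12.5 arrays. The ages were separated by more than the spread within either, and the signal remained far above the background range at both. Its mean was 9.36 ± 0.10 at E17.5 and 10.47 ± 0.21 at E12.5 (SD, n = 3 each), a difference of -1.11 (SE 0.14, interval -1.44 to -0.79, adjusted p = 0.00237), which is 2.16-fold lower. The second probe set of the gene gave the same picture at a lower signal, with 6.20, 6.53 and 6.27 at E17.5 and 7.60, 8.02 and 7.83 at E12.5. Its difference was -1.48 (SE 0.19, adjusted p = 0.0059 over all probe sets). Cdh2 was called lower under all 18 alternatives run, with differences of -1.30 to -0.86 and adjusted p-values of 0.000201 to 0.0363.

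Cdh15, the gene of M-cadherin, had log2 signals of 10.65, 10.49 and 10.34 at E17.5 and 8.88, 9.76 and 10.08 at E12.5. All 3 E17.5 arrays were above all 3 E12.5 arrays, but by a margin smaller than the spread among the E12.5 arrays, of which replicate A was the lowest. Means were 10.49 ± 0.16 at E17.5 and 9.57 ± 0.62 at E12.5 (SD, n = 3 each), and the difference of 0.92 was not called (SE 0.30, interval 0.21 to 1.63, adjusted p = 0.0889). It was called in 3 of 18 alternatives, with an adjusted p of 0.0488 without E12.5 replicate C and of 0.0455 when dim genes (mean under 4) were left untested, and the range over all alternatives was 0.026 to 0.228. Without E12.5 replicate A the difference was 0.57. Only 1 probe set measured this gene, and its interval holds differences from near 0.2 up to 1.63. Among 10 muscle progenitor markers 5 rose and 1 fell (50% and 10%, against 8.21% and 8.73% of all genes). Itga7, the laminin-binding integrin of muscle, rose by 6.84 and Chrna1, an acetylcholine receptor subunit gene, by 2.53. Pax3, the paired-box factor of embryonic myogenesis, fell (difference -2.56, adjusted p = 0.0527 without E12.5 replicate C). The relation of these markers to Cdh15 was not tested.

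Cdh11, known for its expression in mesenchyme and in osteoblasts, moved by the widest margin of the 8. It had log2 signals of 7.30, 7.37 and 5.81 at E17.5 and 10.68, 11.40 and 10.32 at E12.5. The highest E17.5 array was well below the lowest E12.5 array, and E17.5 replicate C stood apart below its own group. Means were 6.83 ± 0.88 at E17.5 and 10.80 ± 0.55 at E12.5 (SD, n = 3 each), a difference of -3.97 (SE 0.48, interval -5.11 to -2.84, adjusted p = 0.00218), or 15.7-fold lower. A second probe set, with 3.58, 3.69 and 3.30 at E17.5 and 6.50, 7.36 and 6.33 at E12.5, differed by -3.21 (SE 0.32, adjusted p = 0.00235 over all probe sets). At E17.5 that probe set lay under 4, so the size of its fall depends on the background model. The main probe set was called under all 18 alternatives, with differences of -4.25 to -3.09 and adjusted p-values of 2.52e-05 to 0.0132.

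Markers of connective tissue moved with Cdh11 between arrays of one age. The mean log2 signal of 10 connective tissue markers was 8.74, 8.71 and 7.64 at E17.5 and 7.65, 9.34 and 7.22 at E12.5, so E17.5 replicate C was lowest and E12.5 replicate B highest within their ages, as for Cdh11. The 8 cartilage markers showed the same order, at 6.59, 6.70 and 4.75 at E17.5 and 6.70, 7.80 and 6.44 at E12.5, and so did the 6 tendon markers, at 7.05, 7.04 and 5.60 at E17.5 and 5.33, 6.59 and 5.16 at E12.5. No member of these 3 lists lay under 4 on all arrays. Between the ages the connective tissue list was divided, with 2 members risen and 3 fallen, among them Dpt, the matrix protein dermatopontin (9.04), Twist2, a mesenchymal transcription factor gene (-3.21), and Pdgfra, a growth factor receptor gene of mesenchyme (-3.68). The shares called were 20% higher and 30% lower, against 8.21% and 8.73% of all genes. The list's median difference was -0.38, while its mean was 8.36 at E17.5 and 8.07 at E12.5, of the other sign. Dpt was the one member that differed by over 9. Merging E17.5 A and B left 1 rise and 1 fall in the list, and leaving out 1 array gave 1 to 5 rises and 0 to 3 falls. Without E12.5 B and E17.5 C the difference of Cdh11 was -3.17 (SE 0.16, adjusted p = 0.0103).

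**Figure D2:**
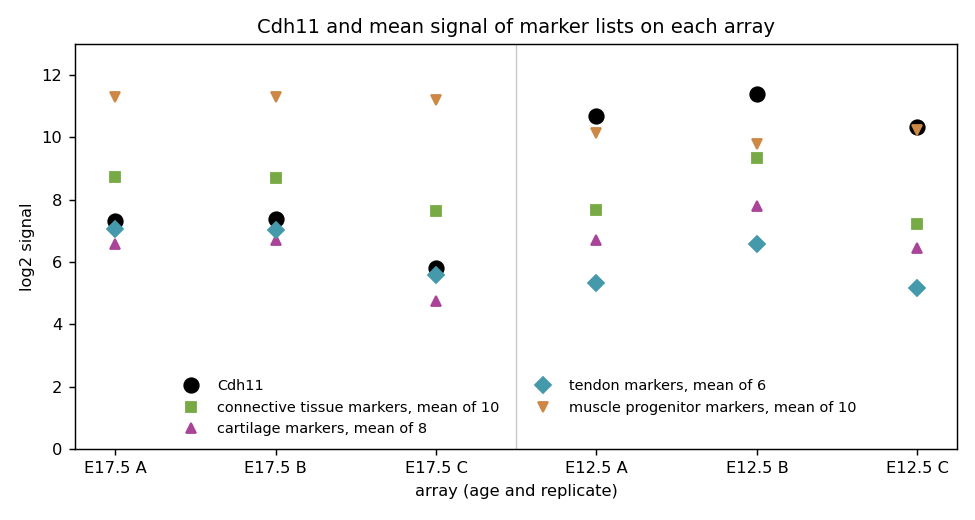
Log2 signal of Cdh11 (black) and the mean log2 signal of 4 marker lists on each array, the 3 E17.5 arrays at the left and the 3 E12.5 arrays at the right. Within an age Cdh11 is lowest where the connective tissue, cartilage and tendon lists are lowest; between the ages Cdh11 is lower at E17.5 on every array, and the median connective tissue marker differed by -0.38.

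Other lists with cells that use Cdh11 gave further values. Of 9 cartilage markers 8 were measured, and 1 fell, the collagen gene Col9a1 (-4.02, adjusted p = 0.0245; not called without any 1 of the E12.5 arrays). Among 6 tendon markers Tnmd, the tenomodulin gene, rose by 4.38 (not called with E17.5 A and B merged), Thbs4, a thrombospondin gene, rose as well (adjusted p = 0.00433), and Mkx, a homeobox gene of tendon, fell by 3.41. The 3 measured osteoblast markers were not called, and 2 of them were under 4 on all arrays. Of 5 smooth muscle and pericyte markers 2 rose, Rgs5 by 3.89 and Cspg4 by 1.90. The 2 that fell were Pdgfrb, by 3.84, and Acta2, a smooth muscle actin gene, by 0.49. Acta2 was read on a probe set of a kind that may cross-hybridise, and was called in 9 of 18 alternatives. Over the 18 its difference ran from -0.67 to 1.16, with the main sign in 16, so those calls need not all be falls. The part of these cell types in the fall of Cdh11 was not tested.

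Cdh1, the gene of E-cadherin, was called lower at signals near the background range. Its only probe set read 2.89, 2.96 and 2.95 at E17.5 and 4.67, 4.73 and 3.73 at E12.5. All E17.5 arrays were in the dense low range, where no specific signal can be told from background, and 1 of the E12.5 arrays was there too. The means of 2.93 ± 0.04 at E17.5 and 4.38 ± 0.56 at E12.5 (SD, n = 3 each) differed by -1.44 (SE 0.27, interval -2.08 to -0.80, adjusted p = 0.0126). With a floor at 4 put under the signals the difference was -0.47 and the call was lost (adjusted p = 0.275), as it was without E12.5 B and E17.5 C (-1.28, adjusted p = 0.0922). Over 17 alternatives the adjusted p ran from 0.000991 to 0.275.

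Epithelial genes were lower beside Cdh1 in part. The mean log2 signal of 13 surface ectoderm and epithelial markers was 3.72, 3.67 and 3.80 at E17.5 and 4.41, 5.08 and 4.23 at E12.5. Of the 13, 2 fell, none rose and 5 lay under 4 on all arrays (Krt8, Cldn6, Cldn7, Sfn and Grhl2). The share called lower was 15.4%, against 8.73% of all genes. Epcam, an adhesion gene of epithelia, had 2.80, 2.79 and 3.70 at E17.5 and 7.20, 7.21 and 7.18 at E12.5, a difference of -4.10 (SE 0.30, adjusted p = 0.000333). Trp63, the p53 family gene of basal epithelium, fell by 2.39, a call lost without E12.5 B and E17.5 C (adjusted p = 0.0881). On E12.5 replicate C, where Cdh1 was lowest among the embryonic arrays, Trp63 was lowest too, at 5.98 beside 7.42 and 7.15, and the median marker stood 0.355 below the mean of the other 2 arrays, while Epcam was level on all 3. Their part in the fall of Cdh1 was not tested.

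Cdh3, the gene of P-cadherin, stayed in the background range at both ages. It read 2.46, 2.49 and 2.53 at E17.5 and 2.55, 2.58 and 2.78 at E12.5, and its second probe set ran between 2.46 and 2.52 over all 6 arrays. Although the ages did not overlap on the main probe set, every value was in the background range, and the difference of -0.14 was not called (interval -0.29 to 0.01, adjusted p = 0.198). Raising values under 4 to 4 left no difference.

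Cdh4, the gene of R-cadherin, read 3.97, 3.94 and 4.22 at E17.5 and 4.88, 4.66 and 4.47 at E12.5. The ages did not overlap, but both stood at the upper edge of the background range. The difference of -0.63 was not called (SE 0.19, interval -1.08 to -0.17, adjusted p = 0.0706). It was called in 4 of 18 alternatives, over which the adjusted p ran from 0.00337 to 0.261. Its other 2 probe sets lay under 4 on all arrays except 1, E12.5 replicate B, where one of them read 4.60.

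Cdh6, a type II cadherin gene, rested on 1 array. Its main probe set read 2.77, 2.78 and 2.85 at E17.5 and 3.55, 6.19 and 2.84 at E12.5. Only E12.5 replicate B was above 4, and the ages overlapped. The difference of -1.39 was not called (SE 0.79, interval -3.29 to 0.50, adjusted p = 0.339), it was -0.40 without that array (adjusted p = 0.308), and none of 17 alternatives called it (adjusted p 0.145 to 0.71). E12.5 replicate B was also the array on which the median connective tissue marker stood 1.91 above the mean of the other E12.5 arrays, the median tendon marker 1.41, the median cartilage marker 1.26 and the median endothelial marker 1.08. Their part in the reading of Cdh6 was not tested. Lists of neural and blood cells were read as well. Of 7 Schwann cell and neural crest markers 2 fell, the receptor genes Ngfr (-3.65) and Erbb3 (-2.80). None rose, and 4 lay under 4 on all arrays. Of 5 neuronal markers 1 fell, Isl1 (-2.58), called in 6 of 17 alternatives and not with E17.5 A and B merged. In that list 3 lay under 4 on all arrays. Of 8 blood markers 1 rose, the macrophage gene Cd68 (2.99), and 4 lay under 4 on all arrays. The 2 that fell were the embryonic globin genes Hbb-y (-10.41) and Hba-x (-4.33, not called with E17.5 A and B merged). Shares called lower were 28.6% (Schwann cell and neural crest), 20% (neuronal) and 25% (blood), against 8.73% of all genes. The second Cdh6 probe set read 1.99 to 2.01 on every array.

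Cdh13, the gene of T-cadherin, was higher at E17.5 on 2 of its 4 probe sets, and the choice between them decided the call. The main probe set read 6.60, 6.36 and 6.88 at E17.5 and 4.31, 5.65 and 5.77 at E12.5. Its ages did not overlap, but E12.5 replicate A lay far below the other embryonic arrays, and the difference of 1.37 was not called (SE 0.43, interval 0.34 to 2.40, adjusted p = 0.0794). The next probe set read 6.24, 6.51 and 6.62 at E17.5 and 4.92, 4.20 and 4.28 at E12.5. There the difference was 1.99 (SE 0.27, interval 1.34 to 2.64, adjusted p = 0.00714 over all probe sets, of which 8.89% were called). The remaining 2 probe sets did not differ beyond their error, at 0.16 (interval -0.27 to 0.59) and 0.03 (interval -0.07 to 0.13), and both were at or near the background range. With the mean of all 4 the gene was called higher (0.89, adjusted p = 0.00778), and it was called in 3 of 18 alternatives (adjusted p 0.00778 to 0.189).

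T-cadherin is also known from blood vessels, and the endothelial markers were read beside it. Their mean log2 signal was 4.18, 4.32 and 3.52 at E17.5 and 3.59, 4.71 and 3.59 at E12.5. Of 8 markers 1 rose, the angiopoietin receptor gene Tek (4.88), none fell, and 2 lay under 4 on all arrays, Pecam1 and Tie1. The median difference of the list was -0.55, and Tek was the only member with a positive difference. The others ran from -1.37 (Kdr) to -0.003 (Pecam1), none of them called. Cdh5, the gene of VE-cadherin and the cadherin of endothelium, read 2.90, 3.37 and 2.51 at E17.5 and 2.98, 4.01 and 2.83 at E12.5 (difference -0.35, interval -1.18 to 0.49, adjusted p = 0.667). On E17.5 replicate C the endothelial list was at its lowest of all arrays, little below E12.5 A and C, and Cdh13 was at its highest. The part of endothelial cells in the signal of Cdh13 was not tested.

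**Figure D3:**
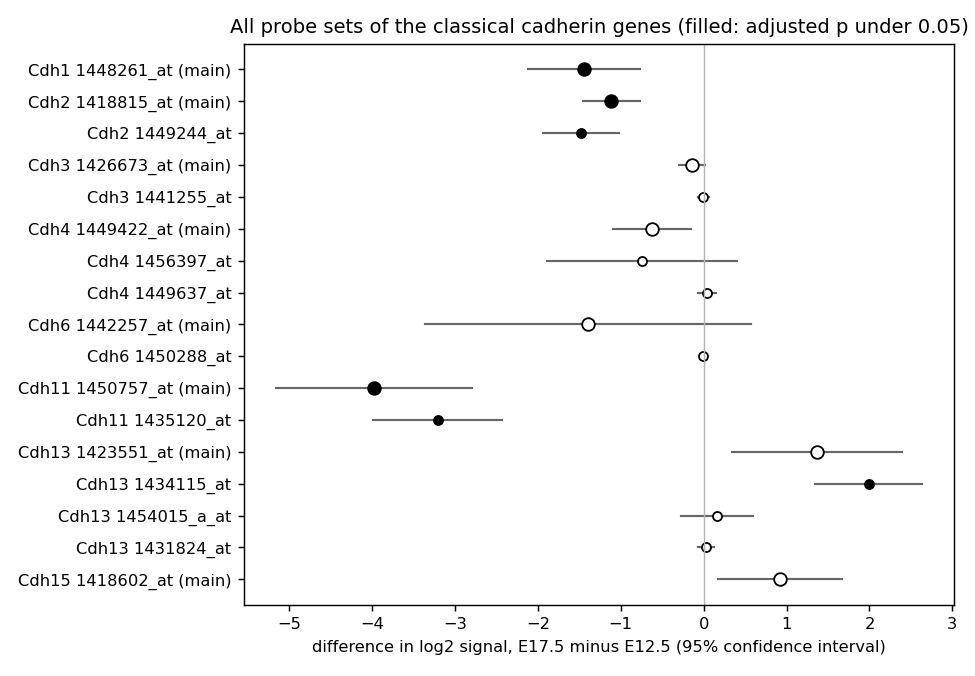
Difference in log2 signal, E17.5 minus E12.5, for each of the 17 probe sets, with its 95% confidence interval; large points are the main probe sets, and filled points have an adjusted p under 0.05 in a fit over all 44994 probe sets. Both probe sets of Cdh2 and both of Cdh11 lie below 0, whereas those of Cdh13 are divided between 1.99 and 0.03.

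Over all 17 probe sets, 6 were called in the fit over the whole array, 5 of them lower and 1 higher. The 5 were those of Cdh1, Cdh2 and Cdh11, and the 1 was the second of Cdh13. In that fit 8.89% of probe sets were called, 4.35% lower. Judged by separation alone, 7 of the 8 genes had ages that did not overlap, 5 lower and 2 higher, against 31.4% of all genes (17.2% lower and 14.2% higher). Cdh3 is among the 5, although all its values were at background. The spread between E12.5 arrays exceeded that between E17.5 arrays in 7 of the 8 genes, Cdh11 being the other case, but E17.5 A and B were near copies and lower the spread of that age.

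Genes with a like pattern were sought among 9232 others with a mean of at least 6 in either age, by the root mean square distance of log2 values centred on each gene's mean over the 6 arrays. Nearest to Cdh2 were Ccdc85b (0.055) and Iqcb1 (0.075). Cpe, the carboxypeptidase E gene, and Pdgfrb, a growth factor receptor of mesenchyme and pericytes, were nearest to Cdh11, at 0.13 and 0.17, and they differed by -3.85 and -3.84. For Cdh13 the nearest were Plbd2 (0.16) and Ubtd1 (0.16), and for Cdh15 Aldh3a2 (0.10) and Rtkn (0.11).

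The other cadherins were mostly at background. Of 46 listed 41 were measured, and 23 of these lay under 4 on all arrays. In all 1 rose, 6 fell and 34 were not called, a share of 17.1%, close to the 16.9% of all genes, with a median difference of -0.01. Among 13 further classical and related genes none was called (4 were lower without E12.5 B and E17.5 C), and 11 were under 4 on all arrays. They include Cdh19, a cadherin of Schwann cell precursors, at 2.36 to 2.44 at E17.5 and 2.38 to 2.41 at E12.5. Of 5 desmosomal cadherins none was called, and 3 lay under 4 on all arrays. A count of 1 lower came without cross-hybridising probe sets, without E12.5 replicate C, with array weights, and without E12.5 B and E17.5 C.

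Falls near the size of that of Cdh11 were found among the protocadherins. Pcdh17 had 5.03, 5.43 and 5.38 at E17.5 and 9.94, 8.80 and 9.58 at E12.5, a difference of -4.16 (SE 0.32, adjusted p = 0.000362). Pcdh19 stood at 5.25, 4.77 and 5.24 at E17.5 and at 9.26, 9.20 and 8.90 at E12.5 (-4.03, SE 0.22, adjusted p = 0.000131). Neither gene's ages overlapped, and both differences were near the -3.97 of Cdh11. Of 12 nonclustered protocadherins Pcdh18 fell as well (-1.25, not called with the mean of its probe sets), and Pcdh7 rose by 1.12 (not called with that mean). The share called was 33.3%, against 16.9% of all genes. In the group of Fat, Dachsous, Celsr and calsyntenin genes 3 of 11 fell, by less than Cdh11. They were Clstn2 (-2.77, not called without cross-hybridising probe sets), Fat3 (-1.75) and Celsr1 (-0.35, all arrays under 4). The share that fell was 27.3%, against 8.73% of all genes. Merging E17.5 A and B gave a count of 2 falls, and leaving out 1 array 1 to 4.

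The catenins that bind the cadherin tail differed little, with one exception. Ctnnb1, the beta-catenin gene, read 14.33, 14.37 and 14.35 at E17.5 and 14.40, 14.33 and 14.21 at E12.5, a difference of 0.04 (interval -0.17 to 0.24, adjusted p = 0.895). For Ctnna1, the alpha-catenin gene, the difference was -0.04 (interval -0.27 to 0.18, adjusted p = 0.884), and for Ctnnd1, the p120-catenin gene, it was 0.26 (interval -0.22 to 0.73, adjusted p = 0.524). Jup, the gene of plakoglobin, which takes the place of beta-catenin in some complexes, was the exception. It had 6.08, 6.00 and 6.42 at E17.5 and 4.10, 4.41 and 4.58 at E12.5, and rose by 1.80 (SE 0.25, adjusted p = 0.00386). This rests on 1 probe set of a kind that may cross-hybridise, and without such probe sets no gene of the list rose. Of 18 catenin and plaque genes 1 rose, 1 fell and 16 were not called, 11.1% in all. The fall was that of Ajuba, a LIM protein gene of junctions, by 0.58, and it was not called with E17.5 A and B merged.

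**Figure D4:**
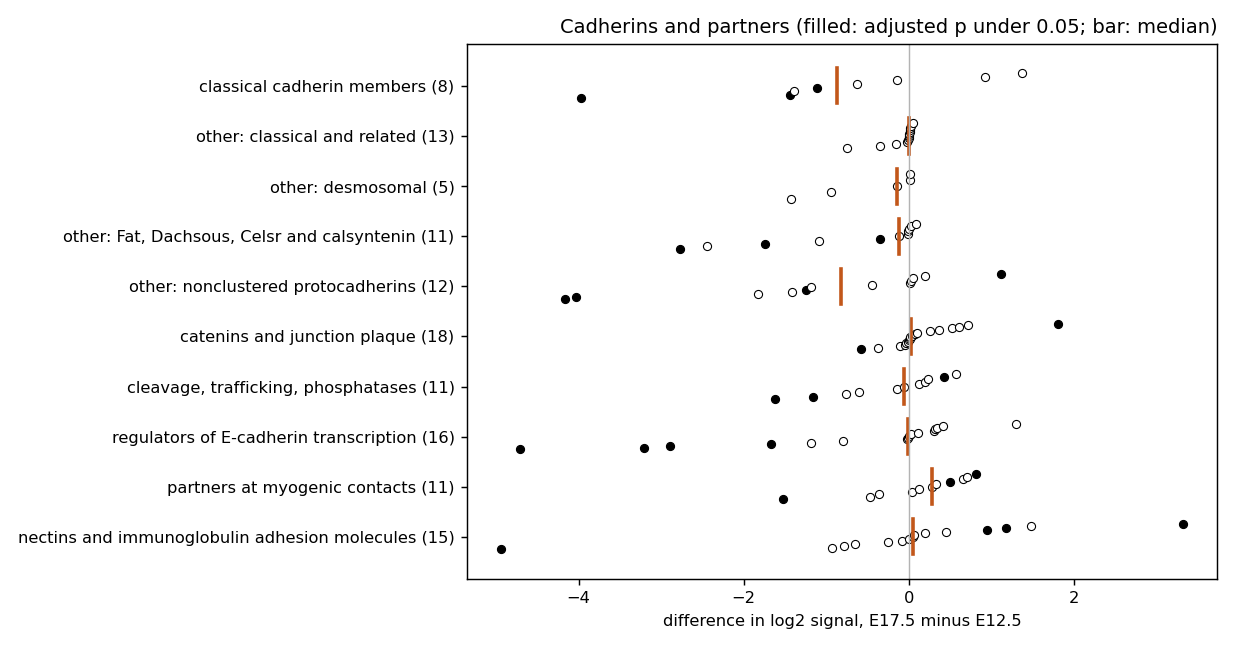
Difference in log2 signal, E17.5 minus E12.5, of every measured gene in the cadherin set and in 9 lists of relatives and partners, with the number of genes in brackets; filled points have an adjusted p under 0.05 and the bar is the median. The 8 cadherin genes have a median of -0.87, the catenin list one of 0.03 and the protocadherin list one of -0.82.

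Genes that act on cadherins changed in both directions. Of 11 measured genes of cleavage, trafficking and dephosphorylation 1 rose and 2 fell. Ptprf, a receptor phosphatase gene, fell by 1.16 (SE 0.13, adjusted p = 0.00165) and Ptprk, another, by 1.62, while Rab5a, an endocytosis GTPase gene, rose by 0.43. Merging E17.5 A and B left 0 and 1. Adam10, the protease gene that sheds N-cadherin and E-cadherin, differed by 0.57 (interval 0.18 to 0.96, adjusted p = 0.0584). Among 11 partners of cadherins at myogenic contacts Spag9 and Rhoa rose by 0.82 and 0.50, and Boc, a co-receptor gene related to Cdon, fell by 1.52. Neither rise was called with E17.5 A and B merged or when a gene's probe sets were averaged, that of Rhoa was also lost without cross-hybridising probe sets, and the fall of Boc was not called without E12.5 B and E17.5 C (adjusted p = 0.0548). Cdon, the co-receptor gene whose protein binds N-cadherin in myoblasts, read 12.05, 12.12 and 12.86 at E17.5 and 12.28, 12.02 and 11.89 at E12.5 (difference 0.28, interval -0.27 to 0.83, adjusted p = 0.561).

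In a list of genes linked to the E-cadherin gene, repressors and others together, all calls were falls. Of 16 measured, 4 fell (8.73% of all genes were called lower), none rose and 6 lay under 4 on all arrays, with a median difference near 0 (-0.005). Twist1 had 4.60, 4.24 and 2.64 at E17.5 and 8.26, 9.35 and 7.99 at E12.5, a difference of -4.71 (SE 0.60, adjusted p = 0.00281). Twist2, which is also one of the connective tissue markers, fell by 3.21, Grhl1, an epithelial transcription factor gene, by 2.89, and the repressor gene Snai1 by 1.67. The calls of Twist2 and Snai1 were lost with E17.5 A and B merged. Snai2, Zeb1 and Zeb2, which encode repressors of the same gene, were not called, at 0.34 (interval 0.02 to 0.66), -0.02 (interval -0.30 to 0.25) and 1.30 (interval 0.24 to 2.36). Zeb2 stood at 12.38, 12.35 and 10.71 at E17.5, with replicate C apart, and at 10.35, 10.76 and 10.43 at E12.5.

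Adhesion genes of the immunoglobulin family that act beside cadherins gave 3 rises and 1 fall among 15 measured. Ncam1 had 10.45, 10.56 and 10.49 at E17.5 and 9.45, 9.48 and 9.05 at E12.5, and rose by 1.17 (SE 0.14, adjusted p = 0.00225). Mcam rose by 3.33 and Nectin3, a nectin gene, by 0.95, but with E17.5 A and B merged these 2 were not called. Cadm1 fell to near background at E17.5, against a clear signal at E12.5, with 4.38, 4.62 and 4.61 at E17.5 and 9.61, 9.65 and 9.16 at E12.5 (difference -4.94, SE 0.22, adjusted p = 6.92e-05). The shares called were 20.0% higher and 6.67% lower, against 8.21% and 8.73% of all genes.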

How the data were processed

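RNA of sorted Pax7-nGFP+ limb cells went through 2 cycles of 3' amplification and was hybridised to 6 single-colour Affymetrix arrays, per the labels' protocols. The authors deposited 1 log2 signal for each probe set and array, made with GCRMA per the submitters' processing notes. No GCRMA version is given in the sources used here. They ran from 0.96 to 15.94, with array medians of 3.38 to 3.47. The number of arrays and the signal over background limit the precision. Of 44994 probe sets 34909 had 1 symbol (34705 updated by entrez ID to RefSeq names, assembly GRCm38.p6), 931 had several symbols and were dropped, 9154 lacked a name in the tables used here, and 18182 genes remained. Differences were fitted with limma 3.58.1 in R 4.3.3 (lmFit, eBayes with an intensity trend, no filter), adjusted by Benjamini-Hochberg over all genes at 0.05, and the script was tested on simulated data. Probe sets were fitted in the same way over the whole array. The members and gene lists (20 lists, 189 of 203 genes measured, 6 in more than 1 list) were chosen with earlier results of these data known. Named genes are the 8 members, 14 fixed partners, up to 3 called rises and 3 called falls of each list of relatives, up to 3 called markers of each marker list and the 2 nearest genes of each bright member. The result of 1 fixed partner is not reported here. Pax7, read to check the sort, Acta2 and genes named for lying under 4 on all arrays were chosen after their values were seen. Results were recomputed with a constant and a robust variance prior, with array weights, with averaged or stricter probe sets, with a filter or floor at 4, after centring or quantile normalization, with the replicate block, with E17.5 A and B merged and without single arrays. Sequences of these genes' proteins were not used here. Figures were drawn with matplotlib 3.10.9.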

Additional observations from a re-analysis of the deposited data

How the results depend on the processing

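Calls of Cdh2 and Cdh11 held under all 18 alternatives. That of Cdh1 was lost with values under 4 raised to 4 (-0.47) and without E12.5 B and E17.5 C (-1.28), where 2 members were called lower. Array weights, which lean on the near copies E17.5 A and B and on E12.5 C (weights 4.98, 3.24 and 4.81, the others under 0.4), called 3205 genes higher and 5219 lower, and 2 and 5 members, adding Cdh3 (-0.28), Cdh4 (-0.55), Cdh13 (0.85) and Cdh15 (0.60). Cdh4 was also called with a constant variance prior (-0.63), the floor at 4 (-0.60) and centring on bright genes (-0.64), Cdh13 with the mean of its probe sets (0.89, 1 member higher), and Cdh13 (1.37) and Cdh15 (0.92) with dim genes left untested (2 members higher, fewer genes tested).

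Leaving out each array in turn gave 969 to 1553 genes higher, 770 to 1776 lower and 0 to 1 members higher, with a difference of 0.57 to 1.17 for Cdh15. Of all genes, 825 were called lower after merging E17.5 A with B and 3253 without E12.5 B and E17.5 C. The replicate letters were not borne out as a pairing, since same-letter deviations correlated at -0.38, 0.26 and -0.07. With the replicate block 1014 genes were called lower and the same 3 members. Of 720 counts of list members under an alternative 574 stayed within 1.5 times the main count. Counts of 0 that stayed 0, some from lists at background, are among the 574. Signals under 4 hold little specific signal, which limits Cdh1, Cdh3, Cdh4 and Cdh6. The cause of these changes was not tested.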
